A study of Mus musculus with 6 samples.

Results

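The TRiC/CCT chaperonin was followed through the 8 genes that encode its subunits, Tcp1, Cct2, Cct3, Cct4, Cct5, Cct6a, Cct7 and Cct8. Each was taken as the gene of that exact symbol, and all 8 were found among the 46078 genes of the count table. The genes lie on 8 different chromosomes, while their products enter the complex in equal number. The 8 genes were compared between rd1TN-XL cones from explants treated with Trichostatin A (TSA) and cones from DMSO control explants.

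RNA was sequenced from TN-XL-positive cones sorted by flow cytometry from organotypic retinal explants of rd1TN-XL mice, in 3 libraries per group. The TSA group received 10 nM TSA, an inhibitor of class I and II histone deacetylases, in the culture medium, and the control group received the same amount of DMSO. Both groups carried the rd1 mutation, in which rods die first and cones follow, and the TN-XL biosensor, whose expression in cones is what the sort was gated on. No wild-type or untreated retina was part of the comparison. Explants kept their pigment epithelium, were set up at postnatal day (PN) 19 and stayed in culture for 7 days, to PN26. A separate time label gave harvest days of PN29 to PN31 for TSA and PN26 to PN28 for DMSO, which, if it were right, would leave the effect of 10 nM TSA confounded with explant age, so that they cannot be told apart. Each library pooled at least 2 explants from different animals and came from 2000 to 5000 cells, amplified by 17 cycles as cDNA and 11 more as a library. The counts are of PCR-amplified reads without molecular identifiers, so intervals on a share of counts cover counting error only.

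TRiC is a cytosolic ATP-driven folding machine of 2 stacked rings, each built from one copy of every subunit. Closing of the rings encloses a client protein and lets it fold. Actin and tubulin are its best known obligate clients. In photoreceptors it also folds the beta subunit of transducin and of other G proteins, working with the phosducin-like cochaperone Pdcl, and it takes part in the assembly of the BBSome, a ciliary transport complex. Around the ring the subunits follow one order, which is Tcp1, Cct3, Cct6a, Cct8, Cct7, Cct5, Cct2 and Cct4. Work in yeast places the strongly ATP-binding subunits Tcp1, Cct2, Cct4 and Cct5 on one side of that ring and the weakly binding Cct3, Cct6a, Cct7 and Cct8 on the other, and the results below follow that grouping.

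The libraries held 12088800 to 12734097 counts in the TSA group and 9135389 to 13650676 in the DMSO group. They differed widely from each other within groups. The common dispersion fitted by edgeR was 2.16, and between 6974 and 10795 genes lay above 1 CPM (reads of a gene scaled to the effective size of its library) in TSA libraries, against 6690 to 8837 in DMSO libraries. All 11 cone markers were detected in every library and took 3.47% to 5.53% of counts in TSA and 3.64% to 6.05% in DMSO. Rod markers took 0.902% to 1.44% in TSA and 1.42% to 1.74% in DMSO, with 7 of 11 at 0 in some libraries. TSA replicate 1 stood apart by its glial markers. The 10 Müller glia markers summed to 1.43% there, against 0.0730% to 0.126% in the other 5 libraries, and the 10 microglia markers summed to 0.220%, against at most 0.0180%. The 8 bipolar cell markers summed to 0.316% in TSA replicate 1 and to 0.0765% to 0.171% elsewhere.

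All 8 subunit genes were detected in every library and passed the filter on low counts in both groups. Of the 9621 genes that passed it, 6073 did so in both groups, 2615 in TSA alone and 933 in DMSO alone. Against 0 of 8 for the subunits, 37.9% of the tested genes were at 0 in at least 1 library. Among the 1671 tested genes that averaged at least 100 CPM, the share was 5.51%. Of the 48 subunit values 2 (4.17%) lay under 10 CPM, Cct7 in DMSO replicate 1 and Cct4 in DMSO replicate 2. The share was 3.43% over those 1671 genes and 44.9% over all tested genes. The spread between libraries of the same group was a within-group SD of 0.89 on the log2 scale for the median subunit. Over all tested genes the median was 2.42, and over the 1671 genes that averaged at least 100 CPM, as all subunits did, it was 0.81. By this measure the subunits were about as scattered as those 1671 genes. That set has no upper limit, while the subunits averaged 116 CPM (Cct6a) to 251 CPM (Cct8), so it was not matched to their abundance. Among themselves they ranged from 0.33 for Cct3 to 2.94 for Cct7.

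The promoters of these extremes are given so that the steadiest and the most variable subunit can be seen side by side. Each spans 300 bases, most of them before the transcription start, on the strand of the gene, and comes from RefSeq on build GRCm38.p6. Both lie on the plus strand, at chr3:88296885-88297184 for Cct3 and at chr6:85451255-85451554 for Cct7. Capitals mark the box CCAAT, which reads ATTGG where it lies on the other strand.

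Cct3: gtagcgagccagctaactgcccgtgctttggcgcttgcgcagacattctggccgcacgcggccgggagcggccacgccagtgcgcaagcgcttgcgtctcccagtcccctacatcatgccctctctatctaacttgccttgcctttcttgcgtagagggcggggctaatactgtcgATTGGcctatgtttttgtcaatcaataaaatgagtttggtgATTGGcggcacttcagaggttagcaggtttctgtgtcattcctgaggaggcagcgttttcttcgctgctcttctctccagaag
Cct7: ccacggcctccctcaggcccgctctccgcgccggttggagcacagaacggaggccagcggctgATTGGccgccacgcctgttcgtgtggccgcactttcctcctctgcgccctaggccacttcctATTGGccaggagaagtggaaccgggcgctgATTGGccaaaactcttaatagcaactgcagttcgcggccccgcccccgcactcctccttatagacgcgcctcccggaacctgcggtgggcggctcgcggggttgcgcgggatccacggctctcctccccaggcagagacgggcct

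Cct3 held the box at 2 places and Cct7 at 3, all written on the opposite strand. Over the family, 7 of the 8 genes matched the promoter table, with 9 entries because Cct2 and Cct5 have a pair each. Tcp1 held 1 box and Cct6a 2, while the entries of Cct2, Cct5 and Cct8 held none. On both strands CCAAT was found in 37.4% of 32851 promoters of the same length, counted without chromosome 18, which holds no subunit gene. The core of the GC box, GGGCGG, was present in 8 of the 9 entries, all but the second of Cct5, and in 35.7% of those 32851 promoters. Head-to-head pairs of the heat shock factor unit, GAANNTTC, were found only in the second Cct2 entry, and in 7.86% of the 32851 promoters. Tail-to-tail pairs, TTCNNGAA, were found in Cct6a and in the first Cct5 entry, and in 8.52% of the 32851 promoters.

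No subunit gene passed the test between TSA and DMSO. In edgeR's quasi-likelihood test with Benjamini-Hochberg adjustment, 0 of 8 passed an adjusted p of 0.05 and 0 of 8 reached an unadjusted p of 0.05 or less, and the lowest unadjusted p was 0.407, for Cct8. DESeq2, limma-voom and limma-trend called 0 of 8 as well. Over all 9621 tested genes edgeR also called 0, which is 0% of the table, while 772 genes (8.02%) were higher and 221 (2.30%) lower in TSA at an unadjusted p of 0.05. These shares depended on the filter, and with one blind to the groups they were 2.94% higher and 0.657% lower of 8682 genes. TSA and DMSO values overlapped for all 8 subunits. The groups stood clear of each other for 10.1% of the tested genes, and 8 genes are too few to tell 0 of 8 from that share. Fold changes were positive for 4 subunits and negative for 4, with a median of 0.05 on the log2 scale, next to 0.02 over all genes tested. In these sorted cells a lower share of one cell type and less RNA per cell cannot be told apart.

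**Figure D1:**
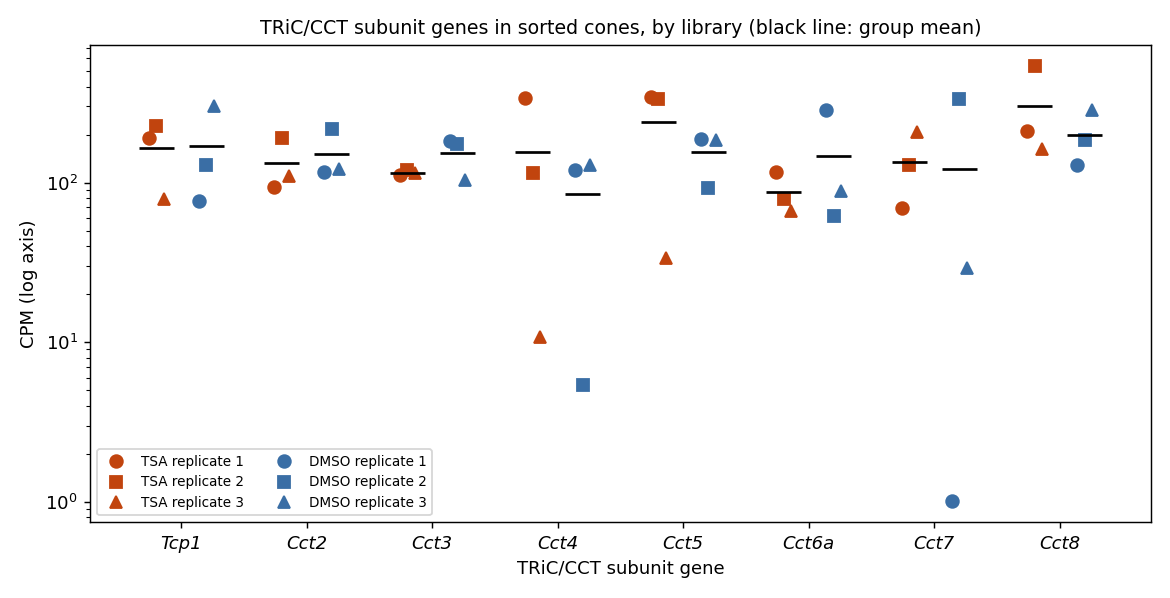
Level of the 8 TRiC/CCT subunit genes in CPM on a log axis, with TSA libraries left (orange) and DMSO libraries right (blue) of each gene, 1 symbol per library and black lines at the group means. The Cct3 points lie close together, between 103 and 183 CPM, while Cct7 spans 1.02 to 335 CPM and Cct4 spans 5.42 to 338 CPM.

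Among the strongly ATP-binding subunits, Tcp1 is the founding member, first described as the t-complex polypeptide of mouse chromosome 17. It lies at chr17:12915701-12925067 on the plus strand of GRCm38 and its principal transcript has 12 exons and 2446 bases. It measured 191, 226 and 78.6 CPM in TSA replicates 1 to 3, against 76.8, 129 and 304 CPM in the DMSO replicates. The highest and the lowest library were both DMSO, so the TSA values fell inside the DMSO range. The means were 165 ± 76.9 CPM in TSA and 169.9 ± 118.8 CPM in DMSO (SD, n = 3 each). The log2 fold change was -0.04 with a standard error of 0.80, and it lay on the positive side under 8 of 18 other settings.

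Cct2 encodes the beta subunit, whose gene is mutated in a human form of Leber congenital amaurosis, an early photoreceptor disease. It lies at chr10:117051001-117063814 on the minus strand, with 16 exons. It measured 93.8, 191 and 111 CPM in TSA cones, against 117, 218 and 121 CPM in DMSO cones. Replicate 2 was the high library in both groups and the other 4 libraries lay between 93.8 and 121 CPM. The group means were 132 ± 52.0 CPM for TSA and 152 ± 57.0 CPM for DMSO (SD, n = 3 each), a log2 fold change of -0.20 with a standard error of 0.72.

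Cct4, the delta subunit, was among the least steady genes of the family. It lies at chr11:22990519-23003780 on the plus strand and its principal transcript has 14 exons. It measured 338, 116 and 10.8 CPM in TSA replicates 1 to 3, against 119.6, 5.42 and 129 CPM in the DMSO replicates. Each group thus had 1 low library, TSA replicate 3 and DMSO replicate 2, and these rested on 120 and 57 counts. The log2 fold change was 0.87 with a standard error of 1.43, and its 95% interval ran from -2.47 to 4.21. The highest value came from TSA replicate 1, where the Müller glia markers summed to 1.43% of counts. Without that library the log2 fold change of Cct4 was -0.29, and the part of glial RNA in it was not tested.

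Cct5, the epsilon subunit, is altered in a human hereditary sensory neuropathy and lies at chr15:31590800-31601804 on the minus strand. It measured 344, 336 and 33.9 CPM in TSA cones, against 188, 93.0 and 186 CPM in DMSO cones. Its lowest libraries were again TSA replicate 3 and DMSO replicate 2. TSA replicates 1 and 2 lay above every DMSO library and TSA replicate 3 below every one. The means were 238 ± 177 CPM in TSA and 156 ± 54.2 CPM in DMSO (SD, n = 3 each), with a log2 fold change of 0.61 and a standard error of 0.90. Without TSA replicate 3 the log2 fold change was 1.10 at an adjusted edgeR p of 0.793, the highest value with 1 library left out. The lowest was 0.32, without DMSO replicate 2. The highest Cct5 level came from TSA replicate 1, the library with the most glial markers. Without that library the log2 fold change was 0.36, and the part of glial RNA in it was not tested. With limma-trend it was 0.09.

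On the weakly ATP-binding side, Cct3 encodes the gamma subunit and was the steadiest member. It lies at chr3:88297116-88321767 on the plus strand, with 14 exons. It measured 111, 120.7 and 115 CPM in TSA cones, against 183, 174 and 103 CPM in DMSO cones. The TSA libraries had an SD of 4.89 CPM, while the DMSO libraries were split between 2 higher and 1 lower than all TSA libraries. From the lowest library to the highest Cct3 varied 1.77-fold. The log2 fold change was -0.41 with a standard error of 0.69, and it was negative under all 18 other settings tried.

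Cct6a encodes the zeta subunit and lies at chr5:129786998-129846371 on the plus strand. It measured 116, 79.1 and 66.0 CPM in TSA cones, against 287, 61.5 and 89.1 CPM in DMSO cones. DMSO replicate 1 stood far above the other 5 libraries. The log2 fold change of -0.75 had a standard error of 0.89 and became 0.17 without that library.

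Cct7, the eta subunit, had the widest range. It lies at chr6:85451514-85468475 on the plus strand, with 12 exons. It measured 68.9, 129 and 207 CPM in TSA replicates 1 to 3, against 1.02, 335 and 29.1 CPM in the DMSO replicates. The 3 TSA values lay between the extremes of DMSO, which differed 329-fold. DMSO replicate 1 held 11 reads of Cct7 among 11921 reads of all subunits, or 0.0923% (95% Wilson interval 0.0515% to 0.165%). The next lowest library had 325 reads of it. Loss of single molecules before amplification was not tested. The means were 135 ± 69.1 CPM in TSA and 122 ± 185 CPM in DMSO (SD, n = 3 each). The log2 fold change was 0.15 with a standard error of 1.57 and moved between -0.56 and 3.12 when 1 library was left out. It was 2.47 with limma-voom, 2.44 with limma-trend and 2.65 with a replicate block, none of them past the adjusted threshold.

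Cct8, the theta subunit, lies at chr16:87483326-87495873 on the minus strand. It measured 209.9, 535 and 162 CPM in TSA cones, against 129, 184 and 287 CPM in DMSO cones. TSA replicate 2 held the highest value of any subunit in any library. The log2 fold change was 0.60 with a standard error of 0.68, and it was -0.05 without TSA replicate 2.

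**Figure D2:**
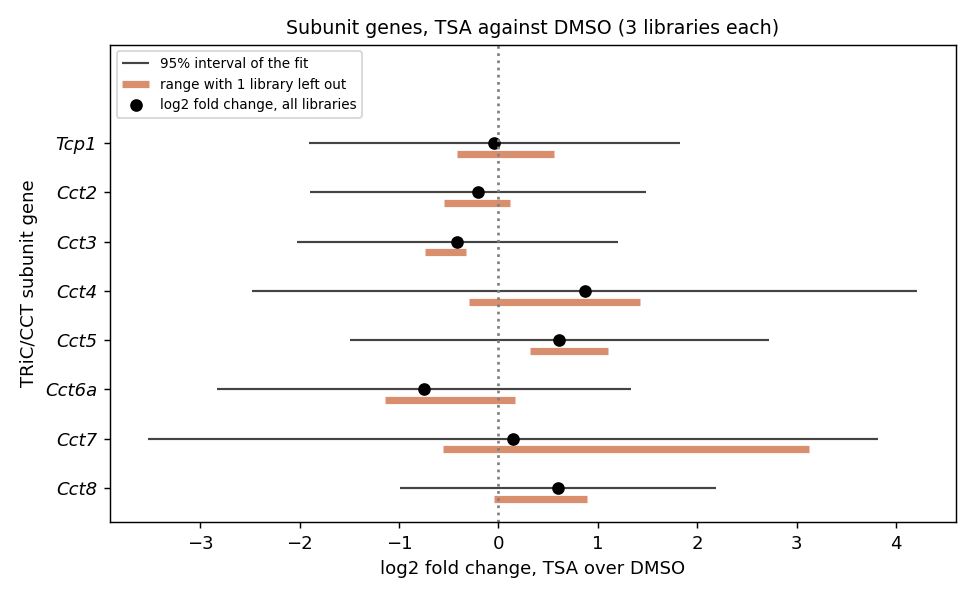
Log2 fold change of each subunit gene, TSA over DMSO, from the edgeR fit (points) with its 95% interval (thin lines) and the range of the fold change when each of the 6 libraries was left out (thick lines). Every interval spans 0, and the range with 1 library left out spans 0 for 6 of 8 genes, all but Cct3 and Cct5.

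The intervals show which sizes of change these libraries could not exclude, without adjustment over genes. The narrowest belonged to Cct8, from -0.99 to 2.19, and to Cct3, from -2.03 to 1.21 on the log2 scale. The widest, for Cct7, ran from -3.52 to 3.82. Over all settings tried, the lowest unadjusted p of any subunit was 0.107, for Cct7 without DMSO replicate 2.

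Some subunit genes share sequence with a neighbour. Exons of the opposite strand overlap those of Tcp1 by 571 bases (Acat3), of Cct6a by 452 (Psph), of Cct7 by 214 (Pradc1) and of Cct8 by 192 (Usp16), and since the library kit does not mark strand, reads there cannot be told apart. Psph held 1362, 2380 and 1721 counts in TSA replicates 1 to 3, against 2395, 2474 and 1109 counts in the DMSO replicates, in the range of Cct6a itself with 1644, 1032 and 734 counts in TSA, against 3108, 646 and 994 counts in DMSO. Its part in the Cct6a level was not tested. Acat3 held at most 1 count in any library. The pseudogenes Cct3-ps1 and Tcp1-ps1 held at most 5 and 4 counts, which bounds what the authors' counting assigned to them but not what it set aside. The annotation types Cct6a as a processed transcript, so its longest transcript of 2454 bases was used for its length.

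The paralogs of subunits were near absent. Cct6b, a testis-enriched relative of Cct6a, had 0, 316 and 1 counts in TSA replicates 1 to 3, against 1, 1 and 0 counts in the DMSO replicates. Its reads came from TSA replicate 2 alone, and it did not pass the filter. Cct8l1 had 0, 0 and 1 counts in TSA cones, against 3, 3 and 0 counts in DMSO cones.

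Levels of different subunits were compared per kilobase of transcript, as CPM per kb averaged over the 6 libraries. The order was Cct5 at 106 ± 67.7, Cct8 at 105 ± 62.3, Cct2 at 72.4 ± 25.5, Tcp1 at 68.5 ± 36.6, Cct3 at 68.0 ± 17.6, Cct7 at 52.5 ± 51.3, Cct4 at 48.2 ± 48.6 and Cct6a at 47.5 ± 34.97 CPM per kb (SD over libraries). No neighbours in this order differed by more than the larger of their SDs, and neither did Cct5 and Cct6a at its ends. Within groups the order changed. Cct5 and Cct8 led in both, while the lowest was Cct6a at 35.5 CPM per kb in TSA and Cct4 at 34.1 CPM per kb in DMSO, and Cct4 averaged 62.4 CPM per kb in TSA. Within a library the subunits were unequal, with a coefficient of variation over the 8 genes of 63.6%, 69.9% and 62.8% in TSA replicates 1 to 3, against 61.4%, 65.5% and 58.1% in the DMSO replicates. An even split would give each subunit 12.5% of the reads per kilobase.

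Which subunit led changed from library to library. It was Cct5 with 27.9%, Cct8 with 28.4% and Cct7 with 24.3% in TSA replicates 1 to 3, and Cct6a with 23.2%, Cct7 with 25.2% and Tcp1 with 22.2% in the DMSO replicates. The lowest was Cct7 at 4.23%, Cct6a at 4.09% and Cct4 at 1.25% in TSA, and Cct7 at 0.0825%, Cct4 at 0.402% and Cct7 at 2.14% in DMSO. These shares are set within each library and do not depend on the scaling between libraries.

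**Figure D3:**
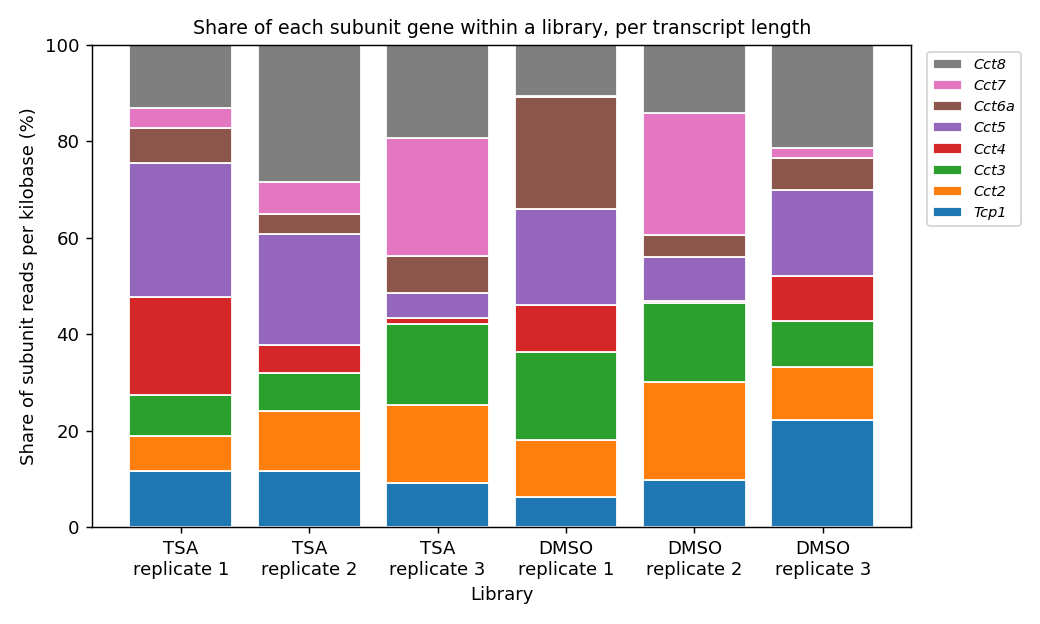
Share of the reads per kilobase of all 8 subunit genes that fell on each gene, in percent, stacked for each TSA library (left 3 bars) and each DMSO library (right 3 bars). Cct7 fills 24.3% of TSA replicate 3 and 25.2% of DMSO replicate 2 and at most 6.71% of the other 4 libraries.

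Cct7, Cct5 and Cct4 moved between the same libraries. Cct7 took 24.3% in TSA replicate 3 and 25.2% in DMSO replicate 2, against 0.0825% to 6.71% in the other 4 libraries. In those 2 libraries Cct4 was at 1.25% and 0.402%, and it held 5.91% to 20.4% elsewhere. Cct5 was at 5.25% and 9.24% there and held 18.0% to 27.9% elsewhere. The 2 libraries came from different groups, so this pattern did not follow treatment. It was noticed in these 6 libraries, in which shares of one whole are bound to trade against each other, and it carries no test.

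The sum over all subunits did not set the groups apart either. Their summed level was 1474, 1732 and 784 CPM in TSA replicates 1 to 3, against 1101, 1199 and 1249 CPM in the DMSO replicates. The TSA libraries lay on both sides of the DMSO libraries, with 2 above and 1 below all of them. The means were 1329.9 ± 490.3 CPM for TSA and 1183 ± 75.1 CPM for DMSO (SD, n = 3 each), a log2 ratio of 0.17. Without TSA replicate 3 the log2 ratio was 0.40, and without TSA replicate 2 it was -0.0048. The coefficient of variation of the sum between libraries was 36.9% in TSA, where Cct3 and Cct6a varied less at 4.23% and 29.8%, and 6.34% in DMSO, below every subunit there. With library totals in place of TMM the SD of the sum was 630.5 CPM in TSA and 253 CPM in DMSO.

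The 5 genes outside the listed families whose profile over the 6 libraries was nearest to the mean subunit profile were sought among 2835 genes of at least 10 CPM on average and 10 counts in every library. They were Cfl1, which encodes the actin-severing protein cofilin, at a root mean square distance of 0.19 on the log2 scale, Ctsb, encoding the lysosomal protease cathepsin B, at 0.19, Snap25, encoding a synaptic vesicle fusion protein, at 0.20, Prkar1a, encoding a regulatory subunit of protein kinase A, at 0.21, and Gm8355 at 0.22. They were chosen for being nearest, and the distances of the subunits themselves ran from 0.37 for Cct8 to 2.61 for Cct7. Snap25, for example, measured 909, 1119 and 573 CPM in TSA cones, against 575, 633 and 1091 CPM in DMSO cones.

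Genes of TRiC partners, clients and paralogs, of tubulin cofactors, of the mitochondrial chaperonin and of heat shock factors and chaperones were also followed. These were 59 further genes, of which 51 were tested. None passed the adjusted threshold in edgeR, 2 were higher and 0 lower in TSA at an unadjusted p of 0.05, or 3.92% together, and both were tubulins. Among all tested genes 8.02% were higher and 2.30% lower. Of the 51 genes, 39 passed the filter in both groups, 9 in TSA alone and 3 in DMSO alone, and both tubulins were among the 9, so that they entered the test only through the group in which they are high. With a filter blind to the groups neither was tested and the count was 0 of 48. Without TSA replicate 1, 44 were tested and the count became 0 higher and 1 lower, Hsf1, while 3.91% of all genes were higher and 3.42% lower. Hsf1 passed the filter through DMSO alone. The list medians below are descriptions of the genes that passed. Without TSA replicate 1 the medians were 0.73 for 4 actin, 0.35 for 8 tubulin, 0.20 for 7 beta-propeller and 0.88 for 2 BBS genes. They were 0.97 for the tubulin cofactors, -0.14 for prefoldin, -0.23 for the phosducin list, 0.18 for the group I chaperonin and -0.41 for the HSF1 list. Over all genes tested without that library the median was -0.07.

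Prefoldin is the complex that carries nascent actin and tubulin to TRiC. Of its 6 subunits 0 passed, and the median log2 fold change was -0.23. The most abundant, Pfdn1, measured 397, 552 and 941 CPM in TSA cones, against 604, 631 and 853 CPM in DMSO cones. Pfdn5 and Pfdn4 had log2 fold changes of -0.80 and -0.62 with standard errors of 0.55 and 0.70. Single low libraries occurred in prefoldin too. Pfdn2 had 12 counts in DMSO replicate 3 and Pfdn6 had 0 in DMSO replicate 2, both picked out after their values were seen.

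Among the phosducin family and other TRiC cofactors 0 of 4 tested genes passed, with a median log2 fold change of -0.36. Pdc, the photoreceptor phosducin that binds transducin beta-gamma, measured 993, 866 and 575 CPM in TSA cones, against 1100.4, 252 and 1142 CPM in DMSO cones. TSA lay inside the DMSO range. Txndc9 and Pdcl3, both phosducin-like regulators of TRiC, had log2 fold changes of -0.74 and 0.01 with standard errors of 0.66 and 1.10. The chaperonin-like BBS proteins, which resemble TRiC subunits and work with TRiC on the BBSome, were Mkks, Bbs12 and Bbs10, and 0 of 3 passed at a median of 1.08. Mkks measured 206, 249 and 481 CPM in TSA cones, against 304, 72.9 and 350.5 CPM in DMSO cones. Bbs12 was at 0 in DMSO replicate 2, and Bbs10 held at most 2 counts in TSA replicate 3 and in DMSO replicates 2 and 3.

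Actin clients showed no gene past the test, 0 of 5, with a median of 1.42. Actb, cytoplasmic beta-actin, measured 731, 622 and 296 CPM in TSA cones, against 409, 517 and 406 CPM in DMSO cones. For Actg1, cytoplasmic gamma-actin, the groups did not overlap, as for 10.1% of all tested genes. It measured 70.8, 59.8 and 48.4 CPM in TSA, against 17.1, 27.5 and 22.1 CPM in DMSO, a log2 fold change of 1.42 with a standard error of 1.17 and an unadjusted edgeR p of 0.259. Actr3, a subunit of the Arp2/3 actin-nucleating complex, had a log2 fold change of -2.22 with a standard error of 1.89. The groups also stood clear for Actr2, of the same complex, at 27.02, 25.9 and 41.3 CPM in TSA, against 2.12, 4.57 and 5.29 CPM in DMSO. Its log2 fold change was 2.98 with a standard error of 1.55, at an unadjusted edgeR p of 0.0927 and an adjusted p of 0.672. Actr2 was picked out after its values were seen.

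Of 12 tubulin genes 2 were higher at the unadjusted threshold and 0 lower, and the median log2 fold change was 1.43. Of the 12 genes, 5 passed the filter in TSA alone, both of the higher ones among them, and with a filter blind to the groups 0 of 9 were higher and the median was 0.82. Tubb2b, a neuronal beta-tubulin, had 24, 16 and 9 counts in TSA replicates 1 to 3, against 1, 0 and 2 counts in the DMSO replicates. The groups did not overlap, but the gene was near the limit of detection. The summed reads, 49 in TSA and 3 in DMSO, gave a ratio of 13.8 with a counting interval of 4.47 to 69.4, which leaves out the spread between libraries. The unadjusted edgeR p was 0.0071 and the adjusted p was 0.405. Tubb6, another beta-tubulin, had 450, 0 and 332 counts in TSA cones and 0 in each DMSO library. Its reads came from 2 of 3 TSA libraries. With DMSO set to 3 counts over the group, the summed TSA level was 221-fold higher. This is a lower bound for counting error only, and it too leaves out the spread between libraries. The unadjusted p was 0.029 in edgeR and the adjusted p was 0.405 in edgeR and 0.0245 in DESeq2, or 0.0173 in DESeq2 on the filtered genes. In TSA replicate 1 both genes had their highest value, along with the glial markers summing to 1.43% of counts, whose part in it was not tested.

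The abundant tubulins were Tubb5 at 255, 166 and 237 CPM in TSA, against 504, 237 and 366 CPM in DMSO, Tuba1a with a log2 fold change of 0.56 ± 0.66 (SE) and Tuba1b with 0.18 ± 0.90 (SE). For Tubb4b, picked out after its values were seen, TSA lay below DMSO in every library, at 14.04, 24.99 and 5.49 CPM in TSA, against 149, 32.6 and 54.8 CPM in DMSO. The groups stood clear of each other for 2 of the 12 tubulin genes and for 10.1% of all tested genes. The log2 fold change of Tubb4b was -2.41 with a standard error of 1.32, at an unadjusted edgeR p of 0.108 and an adjusted p of 0.729. The cofactors that assemble the tubulin dimer after TRiC gave 0 of 5, with a median of 0.73. Tbca, which receives beta-tubulin, had a log2 fold change of -0.80 with a standard error of 0.56, and Tbcb and Tbcc were at 0 in 1 DMSO library each.

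Clients with beta-propeller folds gave 0 of 8 tested genes and a median log2 fold change of 0.52. Gnb3, the cone transducin beta subunit and so the TRiC client closest to cone function, measured 778, 1527.5 and 503 CPM in TSA replicates 1 to 3, against 584, 867 and 739 CPM in the DMSO replicates. TSA again lay on both sides of DMSO, and the log2 fold change was 0.36 with a standard error of 0.49. Rack1, a ribosomal scaffold, and Gnb5, the partner of the RGS9 shutoff protein, had log2 fold changes of -0.10 and 0.21 with standard errors of 0.50 and 2.06.

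The mitochondrial group I chaperonin, which folds proteins of the matrix and shares an ancient origin with TRiC, gave 0 of 2. Hspe1 and Hspd1 had log2 fold changes of -0.30 and 0.74 with standard errors of 0.51 and 1.06. HSF1, HSF2 and the chaperones of the HSP70 and HSP90 systems, which pass clients to and from TRiC, gave 0 of 6 with a median of -0.32. Hspa8, the constitutive HSP70, measured 1016.4, 1480.1 and 535 CPM in TSA cones, against 457, 555 and 888 CPM in DMSO cones, a log2 fold change of 0.67 with a standard error of 0.50. Hsp90aa1 and Hsp90ab1 had log2 fold changes of 0.18 and 0.43 with standard errors of 0.43 and 1.07.

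**Figure D4:**
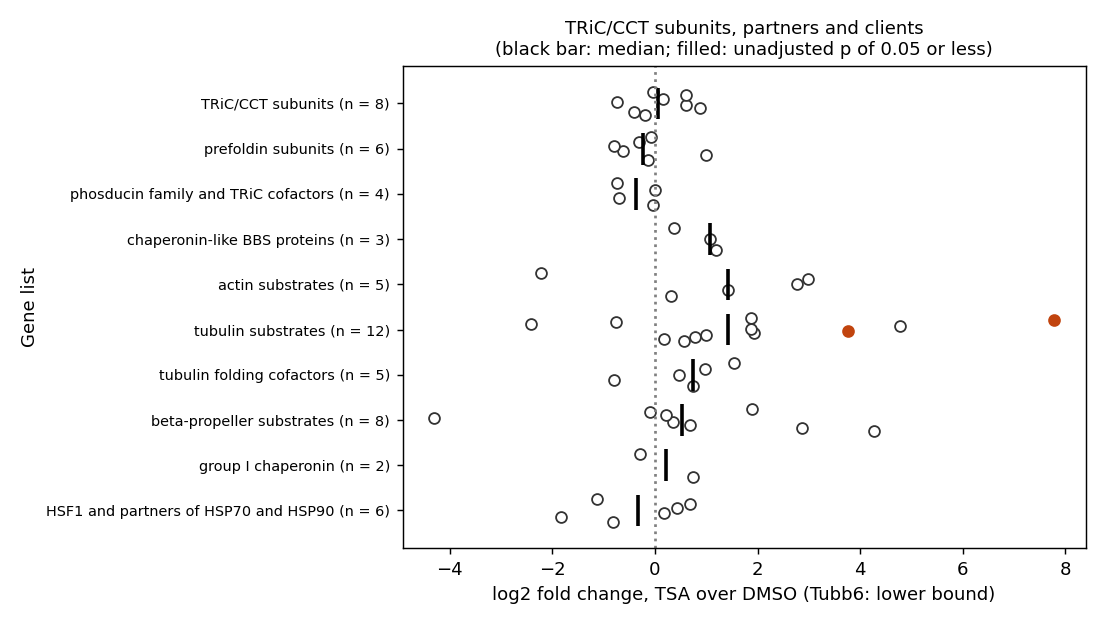
Log2 fold change, TSA over DMSO, of every tested gene (circles) of the subunit list and of the partner, client and related lists. Black bars mark list medians, and filled circles an unadjusted edgeR p of 0.05 or less. The subunits lie on both sides of 0, from -0.75 for Cct6a to 0.87 for Cct4, with a median of 0.05. The only filled circles are the tubulins Tubb2b and Tubb6, with Tubb6 drawn at its lower bound for counting error.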

How the data were processed

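RNA-seq libraries of sorted rd1TN-XL cones (3 TSA, 3 DMSO, grouped by sample title) were made with SMART-Seq v4 and Nextera XT. The authors trimmed reads with Skewer, aligned them to GRCm38 and deposited whole-number read counts per gene. The submitters' processing notes name STAR 2.5.4a, Subread 1.6.0 and edgeR 3.22.3. A second deposited table holds only the authors' comparison of the groups and was not used. Genes were kept when either group had 2 or more libraries above 1 CPM, a rule worded as in the study's methods, though the number of genes kept there was not matched, and tested with edgeR 4.0.16 (TMM scaling, quasi-likelihood test, Benjamini-Hochberg adjustment over 9621 genes) in R 4.3.3. The study's own permutation test was not used, because count data call for a count model. DESeq2 1.42.0, limma 3.58.1, other scalings and filters, a replicate block, thinning and leaving out each library were alternatives. Fold changes are TSA over DMSO. Standard errors of fold changes were worked back from the fitted fold change and the F statistic of the quasi-likelihood test. A 95% interval was built from that standard error with a t quantile. The scripts were tested on simulated counts. Levels between genes were divided by the length of the principal transcript in GENCODE M21. The members and all gene lists were chosen with earlier results of these data known. All 8 members are named. From each other list, genes at an unadjusted p of 0.05 and the 3 most abundant are named, and a few more are said to be picked afterwards. Library totals were 9135389 to 13650676 counts. At the effective library size, the counts of the kept genes times the TMM factor, 1 count was worth 0.0705 to 0.0951 CPM.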

Additional observations from a re-analysis of the deposited data

How the results depend on the processing

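The count of subunit genes called was 0 under every alternative run, and the summed level kept a log2 ratio of 0.0977 to 0.315 under other scalings and filters and of -0.0048 to 0.396 with 1 library left out. With the replicate block, 0 subunit genes and 0 genes in all were called. In their deviations from the group means, same-numbered libraries correlated at -0.01, 0.06 and 0.04. Libraries this variable cannot show by such values whether they shared an animal or a batch. Over all genes edgeR called 0, against 71 by limma-voom on the same genes, 11 without the filter, 676 by DESeq2 on all 29742 genes with a count and 856 by DESeq2 on the 9621 filtered genes. The median log2 fold change of all genes was 0.02 with TMM, 0.13 with upper quartile scaling and 0.15 with library totals. Fold changes of 17 of 36 named genes changed sign in some setting, all without a call. Tcp1 was 0.0563 with upper quartile scaling, 0.12 with library totals, 0.0924 with limma-voom, 0.0570 with limma-trend, 0.0044 at a mean of at least 10 CPM and 0.13 with the replicate block. Cct7 was -0.0765 with library totals, 2.47 with limma-voom, 2.44 with limma-trend and 2.65 with the replicate block. Pdc was 0.0658, 0.224, 0.225, 0.215, 0.0170 and 0.19 in those 6 settings and 0.00028 with the filter blind to group. Rack1 was 0.0059 with upper quartile scaling and 0.0056 with library totals. Pdcl3 was -0.0460 with DESeq2 size factors, -0.0232 with DESeq2, -0.0460 with DESeq2 on the filtered genes and -0.0424 without the filter, and Gnb5 was -0.70 with limma-voom and -0.54 with limma-trend. With 1 library left out, the ranges that crossed 0 were -0.42 to 0.56 for Tcp1, -0.54 to 0.12 for Cct2, -0.29 to 1.43 for Cct4, -1.14 to 0.17 for Cct6a, -0.56 to 3.12 for Cct7, -0.0483 to 0.89 for Cct8, -0.59 to 0.15 for Pfdn1, -0.51 to 0.31 for Pdcl3, -0.50 to 0.21 for Pdc, -0.28 to 0.20 for Rack1, -0.39 to 1.58 for Gnb5, -0.14 to 0.60 for Gnb3, -0.11 to 0.66 for Mkks, -0.19 to 10.23 for Tbcb, -0.12 to 0.53 for Hsp90aa1, -0.26 to 0.66 for Tuba1b and -0.24 to 1.78 for Hsp90ab1. The cause was not tested. With 3 pooled samples per group and a common dispersion of 2.16, changes inside the intervals given above could not be seen. DESeq2 on the filtered genes, and the partner genes in 5 libraries or with the blind filter, were chosen after seeing the data.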

Other observations

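Pradc1, which lies on the strand opposite Cct7 and shares 214 exon bases with it, had 464, 339 and 561 counts in TSA replicates 1 to 3, against 1, 0 and 0 counts in the DMSO replicates. The groups did not overlap, as for 10.1% of the genes tested, and the unadjusted edgeR p was 0.0042 at an adjusted p of 0.405. Pradc1 passed the filter on low counts through TSA alone. Cct7 itself did not follow this split, with 977, 1681 and 2299 counts in TSA and 11, 3518 and 325 counts in DMSO. Usp16, opposite Cct8, had 73, 67 and 1 counts in TSA, against 680, 653 and 2 counts in DMSO, an unadjusted edgeR p of 0.167. Both genes were singled out after their values were seen.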
